A study of Mus musculus with 4 samples.

Results

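The urea cycle genes described here are 10 genes taken by symbol from the deposited table, Cps1, Otc, Ass1, Asl, Arg1, Arg2, Nags, Gls2, Slc25a13 and Slc25a15, and all 10 were found among its 24421 symbols. RNA was measured in livers of mice after hepatectomy, 2 libraries of a group given adipose-derived stem cells (ADSC) within a fibrin gel, called gelADSC, and 2 libraries of control mice given the fibrin gel without cells. Both groups had undergone hepatectomy and both carried the gel, so the comparison concerns the presence of ADSC in the gel. The time after surgery, the extent of the resection, the strain and age of the mice and the origin of the ADSC could not be taken from the labels, and no label ties each library to its own mouse. The p-values measure the spread between these libraries, which may be technical.

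The urea cycle is the route by which the liver turns toxic ammonium into urea for excretion. It begins in the mitochondria of hepatocytes, where ammonium and bicarbonate become carbamoyl phosphate and then citrulline, and it ends in the cytosol, where arginine is cleaved to urea and ornithine. Its enzymes are richest in hepatocytes near the portal vein, while hepatocytes around the central vein capture the remaining ammonium as glutamine.

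Values are deposited FPKM, fragments counted per unit of gene length and per unit of library depth, so that levels of different genes can be compared. The low values were whole multiples of what 1 read is worth, from which library totals of 18107212 to 24400843 reads and the reads behind each value were recovered. Log2 changes compare the group means of log2(FPKM + 1) as gelADSC minus control, each with its standard error (SE) from limma, and a gene was called at an adjusted p under 0.05 over all 11070 genes that averaged at least 1 FPKM. Of these genes 6.92% were called higher and 17.5% lower. The median change of all genes tested was -0.25. Libraries of mouse liver are expected to hold hepatocyte transcripts, and the 9 hepatocyte markers found in the table (Alb, Ttr, Apoa1 and others) together read 49756 and 71439 FPKM in gelADSC libraries 2 and 3, and 58567 and 67315 FPKM in control libraries 1 and 3, and 1 of the 9 rose.

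Otc and Gls2 rose in gelADSC livers and Arg1 fell, while the other tested urea cycle genes did not pass the test. Of the 10 genes 8 reached the mean of 1 FPKM, of which 2 were called higher and 1 lower, or 3 of 8 in either direction beside 24.4% of all genes tested. At an unadjusted p under 0.05, 3 were higher and 2 lower, or 5 of 8 beside 39.9% of all genes tested. Otc was 4.57-fold higher in gelADSC by the ratio of mean FPKM, Gls2 was 2.28-fold higher, and the gelADSC mean of Arg1 was 0.394 of the control mean. The groups did not overlap for 5 genes that read higher in gelADSC (Cps1, Otc, Nags, Gls2 and Slc25a13) and 2 that read lower (Arg1 and Slc25a15), beside 19.2% and 50.5% of all genes tested. In bulk tissue, fewer cells of a type and less RNA per cell cannot be told apart.

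**Figure D1:**
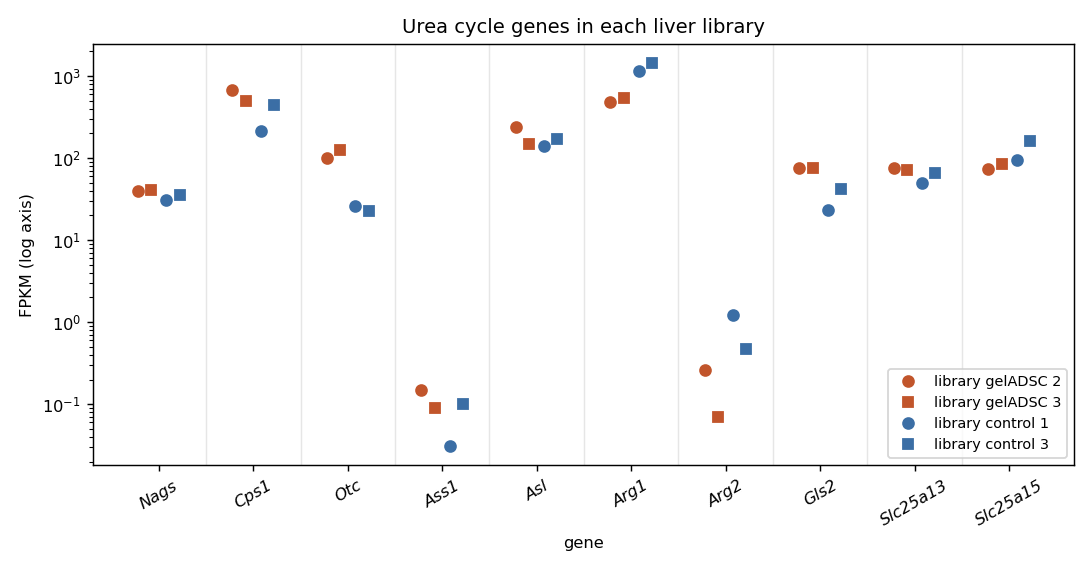
FPKM of the 10 urea cycle genes (log axis) in each library, with gelADSC libraries 2 and 3 in red to the left of control libraries 1 and 3 in blue. Otc lies at 98.8 and 124 FPKM in gelADSC, above both controls, Arg1 lies below both controls, and Ass1 and Arg2 lie orders below the rest.

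Nags encodes N-acetylglutamate synthase, which makes the activator that carbamoyl phosphate synthetase needs. It read 40.0 and 41.0 FPKM in gelADSC libraries 2 and 3 and 30.4 and 35.1 FPKM in control libraries 1 and 3. The groups did not overlap, but the difference did not pass the test (limma log2 change 0.30, SE 0.19, adjusted p = 0.258). An antisense gene of the GENCODE annotation overlaps Nags, and no label says whether reads were counted by strand.

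Gls2, the liver form of glutaminase, releases ammonium from glutamine inside the mitochondria. It read 74.7 and 75.4 FPKM in gelADSC libraries 2 and 3, against 23.4 and 42.5 FPKM in control libraries 1 and 3. Both gelADSC libraries lay above both controls, and the controls differed more from each other than the gelADSC libraries did. The change of 1.22 (SE 0.27, limma adjusted p = 0.0149) was larger than 95.7% of the changes of all genes tested. The call was lost without control library 1, where the log2 change was 0.81 (adjusted p = 0.0838), and with no filter on low values, where it was 1.22 (adjusted p = 0.0761). It was also lost after quantile normalization at a log2 change of 1.496 (adjusted p = 0.0523) and after median ratio scaling at 1.51 (adjusted p = 0.0574). Gls2 shares exon sequence with Spryd4 on the opposite strand, which read 17.1 and 19.9 FPKM in gelADSC and 24.3 and 23.2 FPKM in control.

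Cps1 encodes carbamoyl phosphate synthetase 1, the mitochondrial enzyme that commits ammonium to the cycle. It read 682 and 491 FPKM in gelADSC libraries 2 and 3 and 213 and 443 FPKM in control libraries 1 and 3. Control library 3 came within a short distance of gelADSC library 3, and the gap between the control libraries (1.05 on the log2 scale) exceeded the difference between the groups (0.91, SE 0.34, limma adjusted p = 0.0847). Cps1 did not pass the test with all libraries. It was called higher without control library 3 (log2 change 1.43) and without gelADSC library 3 (1.15), and the change was 0.38 without control library 1. In these fits 1 group holds a single library, whose spread is not measured.

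Otc encodes ornithine transcarbamylase, which joins carbamoyl phosphate and ornithine into citrulline in the mitochondria. It read 98.8 and 124 FPKM in gelADSC libraries 2 and 3, against 26.2 and 22.7 FPKM in control libraries 1 and 3. The groups lay far apart beside the gaps within them, and Otc ranked 622 and 495 among the genes tested in gelADSC libraries 2 and 3, and 2563 and 2595 in control libraries 1 and 3. The change was 2.14 (SE 0.20, 95% interval 1.68 to 2.60, limma adjusted p = 0.00039), larger than all but 1.23% of the changes of all genes tested. Otc was called higher under each of the 11 alternative settings. With all libraries kept, the adjusted p lay between 8.03e-05 (voom on the recovered reads) and 0.0136 (limma with no filter). With a library left out, the log2 change lay between 1.98 and 2.31. Such fits hold 1 library in a group and take its spread from the other group. For Otc only the call and the size are therefore given, and adjusted p values of such fits for other genes carry this limit. The values rested on 5460 and 5681 reads in gelADSC libraries 2 and 3, and on 1181 and 931 reads in control libraries 1 and 3.

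RefSeq promoter windows were given for 5 of the 10 genes (Otc, Nags, Ass1, Slc25a13 and Slc25a15), with 6 windows in all. The 250 bases before the start are printed for Otc, which had the largest change, and for Slc25a13, the gene in whose window a searched motif was found (GRCm38.p6, Otc at chrX:10252055-10252304 on the plus strand, Slc25a13 at chr6:6217174-6217423 on the minus strand). Capitals mark that motif.
Otc: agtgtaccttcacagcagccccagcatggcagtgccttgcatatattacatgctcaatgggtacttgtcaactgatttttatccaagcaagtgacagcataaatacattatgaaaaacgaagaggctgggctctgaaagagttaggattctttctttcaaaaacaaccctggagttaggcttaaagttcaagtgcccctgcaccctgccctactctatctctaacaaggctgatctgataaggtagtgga
Slc25a13: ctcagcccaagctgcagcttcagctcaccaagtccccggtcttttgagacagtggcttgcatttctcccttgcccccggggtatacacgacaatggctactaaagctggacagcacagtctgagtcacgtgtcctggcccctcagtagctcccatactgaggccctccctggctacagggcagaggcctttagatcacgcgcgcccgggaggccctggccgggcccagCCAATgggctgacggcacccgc

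Both strands of each window were searched for TTGCNNAA (letters of C/EBP sites), CCAAT (NF-Y), TGACGTCA (CREB), CAAAGTCCA (HNF4A) and TATAAA (the TATA box). In 32851 RefSeq windows of the same length, 9.56% held TTGCNNAA, 33.8% CCAAT, 1.55% TGACGTCA, 0.384% CAAAGTCCA and 12.4% TATAAA. In the 6 windows of urea cycle genes the single match was CCAAT in that of Slc25a13, from base -22 to base -18 before the start. None of these letters stood in the Otc window, and nothing follows from this about the factors.

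Slc25a15 encodes the mitochondrial carrier that brings ornithine in and takes citrulline out. It read 72.6 and 83.8 FPKM in gelADSC libraries 2 and 3 and 95.3 and 163 FPKM in control libraries 1 and 3. The gelADSC libraries lay below both controls, but the controls stood 0.77 apart on the log2 scale, more than the groups did, and the difference did not pass the test (limma log2 change -0.67, SE 0.27, adjusted p = 0.0959). Its adjusted p lay between 0.0523 and 0.467 over the alternatives. The FPKM of Slc25a15 was 0.735 and 0.673 times that of Otc in gelADSC libraries 2 and 3, and 3.64 and 7.19 times that of Otc in control libraries 1 and 3. Its paralog Slc25a2 rested on 1 and 0 reads in gelADSC libraries 2 and 3, and on 2 and 1 reads in control libraries 1 and 3.

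Ass1 encodes argininosuccinate synthase, which joins citrulline and aspartate in the cytosol. It was listed at 0.151 and 0.0913 FPKM in gelADSC libraries 2 and 3 and at 0.0308 and 0.102 FPKM in control libraries 1 and 3. These values are worth 6 and 3 reads in gelADSC and 1 and 3 reads in control, with exact Poisson 95% intervals from 2.2 to 13.1 reads at the highest and from 0.0253 to 5.57 at the lowest, which cover counting error only. All 4 intervals overlap, and no difference was detectable at this depth. With no filter on low values its log2 change was 0.07 (limma adjusted p = 0.434).

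The enzymes before and after Ass1 in the cycle rested on at least 931 reads in each library. A value near 0 in this table may be a failed estimate, since Oaz1 and Amd1, polyamine genes that all cells use, are listed at 0 in all 4 libraries. What the low value of Ass1 rests on was not tested, and its level in these livers is not described further.

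Slc25a13 encodes citrin, the carrier that exports the aspartate used by argininosuccinate synthase from liver mitochondria. It read 76.2 and 72.2 FPKM in gelADSC libraries 2 and 3 and 50.2 and 65.1 FPKM in control libraries 1 and 3. The groups did not overlap, and the difference did not pass the test (limma log2 change 0.37, SE 0.20, adjusted p = 0.204). Slc25a12, its paralog in other tissues, read 5.28 and 6.89 FPKM in gelADSC and 8.20 and 8.97 FPKM in control (limma log2 change -0.44, SE 0.21, adjusted p = 0.151). The FPKM of Slc25a13 was 14.4 and 10.5 times that of Slc25a12 in gelADSC libraries 2 and 3, and 6.12 and 7.26 times in control libraries 1 and 3.

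Asl encodes argininosuccinate lyase, which releases arginine and fumarate. It read 241 and 149.9 FPKM in gelADSC libraries 2 and 3 and 142 and 171 FPKM in control libraries 1 and 3, and it was the single tested urea cycle gene whose groups overlapped. Its log2 change was 0.28 (SE 0.26, 95% interval -0.30 to 0.87, limma adjusted p = 0.436). Without gelADSC library 2 the change was -0.056 (adjusted p = 0.944).

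Arg1 encodes the cytosolic arginase of hepatocytes, which cleaves arginine into urea and ornithine. It read 481 and 542 FPKM in gelADSC libraries 2 and 3, against 1161 and 1432 FPKM in control libraries 1 and 3. Both gelADSC libraries lay far below both controls. Among the genes tested, Arg1 ranked 135 and 108 in gelADSC libraries 2 and 3 and 52 and 43 in control libraries 1 and 3. The change was -1.33 (SE 0.22, 95% interval -1.84 to -0.83, limma adjusted p = 0.00446), or -1.09 relative to the median of all genes, and 4.3% of all genes tested had a lower one. The call was lost with median ratio scaling (log2 change -1.04, adjusted p = 0.0579), which moved the median of all genes to 0.00, and it was kept in the other 10 alternatives.

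Arg2, the mitochondrial arginase found mainly outside the liver, was scarce. It read 0.260 and 0.0701 FPKM in gelADSC libraries 2 and 3, from 9 and 2 reads, against 1.24 and 0.468 FPKM in control libraries 1 and 3, from 35 and 12 reads. The groups did not overlap, but the exact Poisson intervals of gelADSC library 2 (4.12 to 17.1 reads) and control library 3 (6.20 to 20.96 reads) did. Its mean was below 1 FPKM, and with no filter on low values the log2 change was -0.64 (limma adjusted p = 0.145). Vti1b lies on the opposite strand over part of Arg2 and read 25.8 and 26.0 FPKM in gelADSC and 44.3 and 35.2 FPKM in control, so reads of Arg2 cannot be told apart from reads of Vti1b if strand was not used.

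**Figure D2:**
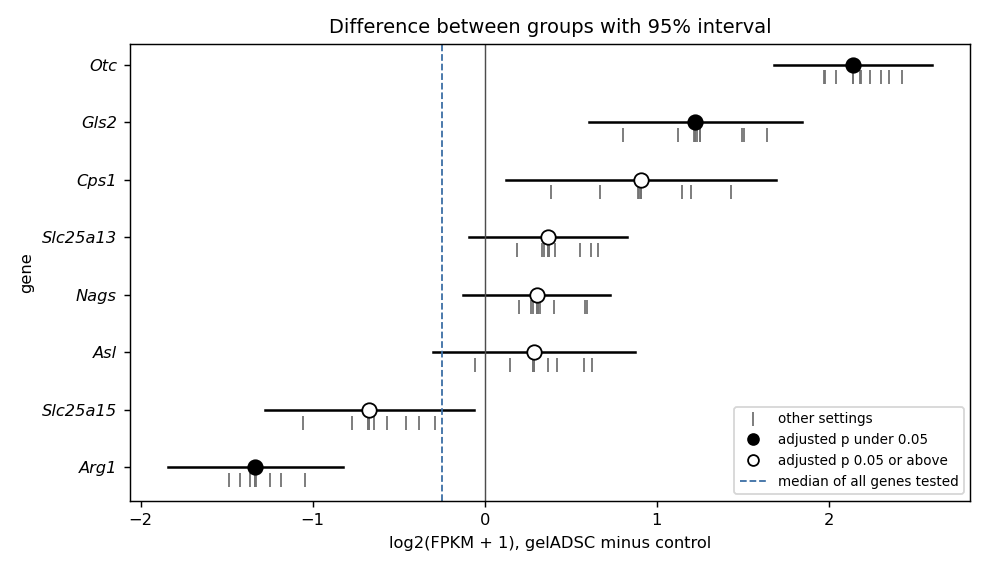
Log2 change of FPKM + 1 in gelADSC over control (x axis) for the 8 tested urea cycle genes with the 95% interval of limma (lines), under 11 other settings (ticks), and the median of all genes (dashed, -0.25). Otc and Gls2 lie above 0 and Arg1 below it with filled points, and the ticks of Asl reach -0.056.

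The make-up of the cycle's transcripts as listed differed between the groups, with Otc, Cps1 and Asl taking larger shares in gelADSC and Arg1 a smaller one. The listed value of Ass1 may be a failed estimate, so the shares at its true level are not known. These shares are given as a description within each library, which scaling between libraries does not alter. Cps1, Otc, Ass1, Asl and Arg1 summed to 1503 and 1307 FPKM in gelADSC libraries 2 and 3, and to 1543 and 2070 FPKM in control libraries 1 and 3. Arg1 took 32.0% and 41.5% of the sum in gelADSC libraries 2 and 3, against 75.3% and 69.2% in control libraries 1 and 3. Cps1 took 45.4% and 37.5% in gelADSC and 13.8% and 21.4% in control. For Otc the shares were 6.57% and 9.52% in gelADSC, and 1.70% and 1.10% in control. Asl took 16.0% and 11.5% in gelADSC and 9.19% and 8.28% in control, although its level overlapped between the groups. The groups did not overlap for any of these 4 shares, but nor did they in level for 69.8% of all genes tested. Shares of other gene sets were not computed. Shares of 1 sum depend on each other, so a lower Arg1 by itself gives the other enzymes larger shares.

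Ratios between pairs of enzymes showed the same separation for Otc and Arg1, and less of it within the mitochondrial pair. Otc over Arg1 was 0.205 and 0.230 in gelADSC libraries 2 and 3, against 0.0225 and 0.0158 in control libraries 1 and 3. Cps1 over Arg1 was 1.42 and 0.905 in gelADSC, against 0.184 and 0.310 in control. Otc over Cps1, the successive mitochondrial steps, was 0.145 and 0.254 in gelADSC and 0.123 and 0.0512 in control, and the nearest libraries of the groups were close. The Cps1 ratio to Nags, which makes its activator, was 17.1 and 12.0 in gelADSC and 7.02 and 12.6 in control, so that the groups overlapped.

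**Figure D3:**
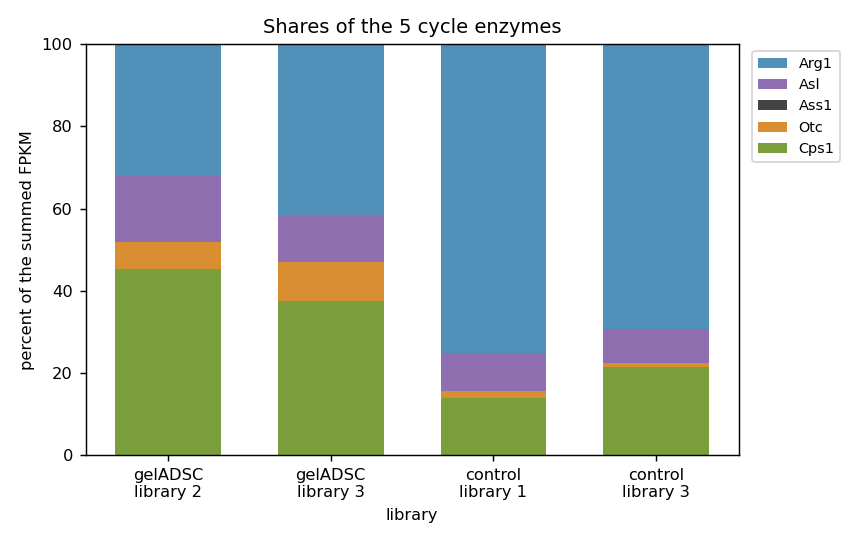
Percent of the summed FPKM of Cps1, Otc, Ass1, Asl and Arg1 taken by each enzyme in each library, gelADSC libraries to the left of control libraries. Arg1 fills 32.0% and 41.5% of the gelADSC bars and 75.3% and 69.2% of the control bars. Ass1, whose listed value may be a failed estimate, is too small to see.

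Between the gelADSC libraries, 5 of the 10 genes had the higher value in library 3, and between the control libraries 8 of the 10 had the higher value in library 3, where the log2 gaps were 1.05 for Cps1, 0.84 for Gls2 and 0.77 for Slc25a15. Asl and Otc had the wider gap between the gelADSC libraries, where library 3 minus library 2 was -0.68 for Asl and 0.33 for Otc, beside 0.27 and -0.20 for library 3 minus library 1 of the controls. Over all genes tested, the median absolute log2 gap was 0.19 between the gelADSC libraries and 0.25 between the control libraries. The calls of Gls2 and Cps1 turned on which library was left out, as given above.

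Genes that bring ammonium, bicarbonate and aspartate to the cycle went both ways. Of 30 tested genes of ammonia and aspartate supply, 8 rose and 5 fell, beside 6.92% and 17.5% of all genes tested. The median change of the list was -0.18 beside -0.25 for all genes. Fewer genes of the list were called without control library 1, as was so over all genes tested. The 4 largest increases were those of Car5a, Slc1a2, Glul and Rhbg, each of which was also called under each alternative setting in which it was tested.

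Car5a, the mitochondrial carbonic anhydrase that supplies bicarbonate to Cps1, read 39.7 and 26.6 FPKM in gelADSC libraries 2 and 3, against 1.45 and 2.22 FPKM in control libraries 1 and 3 (limma log2 change 3.58, SE 0.25, adjusted p = 0.000112). Glul, the glutamine synthetase of hepatocytes at the central vein, read 196 and 227 FPKM in gelADSC, against 39.7 and 32.7 FPKM in control (limma log2 change 2.52, SE 0.20, adjusted p = 0.000156). Both the ammonium-releasing Gls2 and the ammonium-fixing Glul were thus higher in gelADSC. The FPKM of Gls2 was 0.381 and 0.333 times that of Glul in gelADSC libraries 2 and 3, and 0.588 and 1.30 times in control libraries 1 and 3. Slc1a2, a glutamate transporter, and Rhbg, an ammonium transporter, rose with log2 changes of 2.62 and 1.88.

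Among the 5 that fell were the mitochondrial alanine transaminase Gpt2, the serine dehydratase-like gene Sdsl, the glutamate carrier Slc25a22 and the tyrosine transaminase Tat. Gpt2 read 95.1 and 93.9 FPKM in gelADSC libraries 2 and 3, against 323 and 272 FPKM in control libraries 1 and 3 (limma log2 change -1.64, SE 0.19, adjusted p = 0.00101). Sdsl fell with a log2 change of -1.61. Slc25a22 fell by 1.55 on the log2 scale, a call lost with median ratio scaling (adjusted p = 0.0691). Tat fell by 1.15, a call lost without control library 3 (adjusted p = 0.0881), with no filter (0.121), and after quantile normalization (0.0599) or median ratio scaling (0.213). Glud1, the glutamate dehydrogenase that releases ammonium, read 332 and 337 FPKM in gelADSC and 289 and 400 FPKM in control, and its groups overlapped. It was named after its values were seen.

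**Figure D4:**
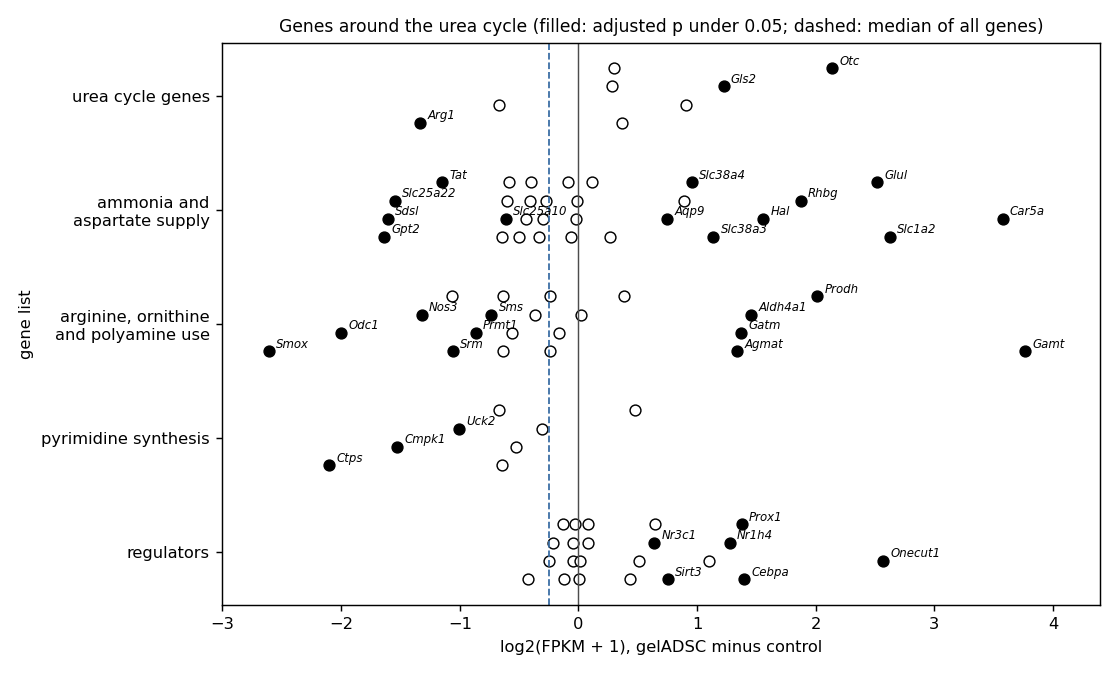
Log2 change of FPKM + 1 in gelADSC over control (x axis) for each tested gene of the urea cycle list and of 4 lists around it, with named filled points for genes at an adjusted p under 0.05 and the median of all genes dashed. The urea cycle genes spread from -1.33 (Arg1) to 2.14 (Otc), and the called genes of the supply and arginine lists lie on both sides of 0.

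Genes that use arginine and ornithine outside the cycle were also split. Of 21 tested genes 5 rose and 6 fell, beside 6.92% and 17.5% of all genes tested, with a median change of -0.36 in the list. Without control library 1 fewer of them were called, as was so over all genes tested. The members named here follow the size of their change.

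Gamt, which completes creatine synthesis, read 161 and 127 FPKM in gelADSC libraries 2 and 3, against 7.55 and 12.1 FPKM in control libraries 1 and 3 (limma log2 change 3.76, SE 0.25, adjusted p = 8.2e-05). Gatm, which makes the creatine precursor from arginine and glycine, rose with a log2 change of 1.37. Prodh and Aldh4a1, the enzymes that turn proline into glutamate, rose with changes of 2.01 and 1.46, and both calls were lost without control library 1 (adjusted p = 0.0744 for Prodh and 0.0689 for Aldh4a1). The call of Aldh4a1 was also lost with no filter (0.0748), and after quantile normalization (0.0557) or median ratio scaling (0.0585).

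Odc1, the ornithine decarboxylase that starts polyamine synthesis, read 23.5 and 22 FPKM in gelADSC libraries 2 and 3, against 114 and 77.8 FPKM in control libraries 1 and 3 (limma log2 change -2.0, SE 0.22, adjusted p = 0.000759). Within a library, the FPKM of Otc was 4.21 and 5.66 times that of Odc1 in gelADSC, and 0.230 and 0.292 times in control, so that the order of these users of ornithine was opposite in the groups. Smox, spermine oxidase, fell by 2.61 on the log2 scale, and Odc1 and Smox were called under each alternative setting. Srm, spermidine synthase, fell by 1.06, a call lost without control library 1 (adjusted p = 0.181), with no filter (0.117), and after quantile normalization (0.143) or median ratio scaling (0.117). Nos3, the endothelial nitric oxide synthase that also consumes arginine, fell by 1.32, a call lost without control library 1 (0.0621).

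Pyrimidine synthesis, which makes its own carbamoyl phosphate in the cytosol, had 3 of 8 tested genes lower and 0 higher by limma. Of all genes tested 17.5% were lower and 6.92% higher, and the median change of the list was -0.66. At an unadjusted p under 0.05, 6 genes of the list were lower and 1 higher, beside 29.5% lower and 10.4% higher of all genes tested. Voom on the recovered reads called 4 lower and 0 higher, beside 18.7% and 7.29% of its 10606 genes. Ctps, which makes cytidine nucleotides, read 3.79 and 4.33 FPKM in gelADSC libraries 2 and 3, against 23.9 and 17.8 FPKM in control libraries 1 and 3 (limma log2 change -2.10, SE 0.22, adjusted p = 0.000562). Cmpk1 and Uck2, nucleotide kinases, fell by 1.53 and 1.00, and both calls were lost without control library 1 (adjusted p = 0.0599 for Cmpk1 and 0.121 for Uck2), that of Uck2 also with no filter (0.078). After either scaling 1 gene of the list was called higher. Over all genes this was 929 of 11069 after quantile normalization and 952 of 11068 after median ratio scaling. Cad, whose first domain makes the cytosolic carbamoyl phosphate, read 2.77 and 3.74 FPKM in gelADSC and 7.78 and 4.16 FPKM in control. The FPKM of Cps1 was 246 and 131 times that of Cad in gelADSC libraries 2 and 3, and 27.5 and 107 times in control libraries 1 and 3.

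A list of regulators known to act on urea cycle genes or enzymes holds transcription factors, coactivators, the hormone receptors Gcgr and Insr and deacylases. Like the other lists, it was chosen with earlier results of these data known, which limits what its counts can show. By limma 6 of 22 were called higher and 0 lower, beside 6.92% and 17.5% of all genes tested, with a median change of 0.08 in the list. At an unadjusted p under 0.05, 10 were higher and 0 lower, beside 10.4% and 29.5% of all genes tested, and voom on the recovered reads called 6 higher and 0 lower, beside 7.29% and 18.7%. Fewer regulators were called without control library 1, as was so over all genes tested. Cebpa, the C/EBP alpha factor, known in mice to be needed for full expression of urea cycle enzymes, read 72.7 and 78.0 FPKM in gelADSC libraries 2 and 3, against 26.8 and 29.2 FPKM in control libraries 1 and 3 (limma log2 change 1.4, SE 0.18, adjusted p = 0.00153), and it was called under each alternative setting.

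Onecut1, a liver homeobox factor, read 8.88 and 27.3 FPKM in gelADSC libraries 2 and 3, against 1.62 and 2.03 FPKM in control libraries 1 and 3 (limma log2 change 2.57, SE 0.42, adjusted p = 0.00425). Its call was lost when control library 1 (adjusted p = 0.11) or control library 3 (0.0503) was left out and with no filter (0.0573). Nr1h4, the bile acid receptor, rose by 1.28, a call lost without control library 1 (0.124) and with no filter (0.0573). Prox1 rose by 1.38, a call lost with no filter (0.0821), after either scaling (0.0558), and when control library 1 (0.171), control library 3 (0.063) or gelADSC library 2 (0.062) was left out. Hnf4a, a main factor of hepatocytes, read 157 and 179 FPKM in gelADSC and 168 and 197 FPKM in control, so that its groups overlapped. It was named after its values were seen.

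Some markers of the hepatocyte zones changed as well, and several of these markers also stand in the lists above. Of 9 markers of hepatocytes near the portal vein, 4 rose and 0 fell by limma, beside 6.92% and 17.5% of all genes tested. The 9 include Gls2 itself and, from the supply list, Hal and Sds, and their median change was 0.89. At an unadjusted p under 0.05, 4 were higher and 1 lower, beside 10.4% and 29.5% of all genes tested, and voom called 4 higher and 0 lower, beside 7.29% and 18.7%. Their summed level was 2946 and 3531 FPKM in gelADSC libraries 2 and 3, and 2654 and 4168 FPKM in control libraries 1 and 3. Of 9 markers of the zone around the central vein 7 rose and 1 fell by limma, with a median change of 2.62. The 9 include Glul, Slc1a2 and Oat from the lists above. At an unadjusted p under 0.05, 7 were higher and 1 lower, and voom called 6 higher and 1 lower of 7 tested. Their sums were 4912 and 3882 FPKM in gelADSC and 825 and 1154 FPKM in control. Cyp2e1, named after its values were seen, gave 3591 and 2542 FPKM of these in gelADSC and 304 and 423 FPKM in control. The part of zonal make-up in the changes of Otc, Gls2 and Arg1 was not tested.

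Alternatively activated macrophages also express Arg1. Of their 5 markers 3 were tested, of which 2 fell and 0 rose, beside 17.5% and 6.92% of all genes tested. The 5 summed to 15.7 and 13.9 FPKM in gelADSC libraries 2 and 3, against 42.8 and 61.0 FPKM in control libraries 1 and 3. Most of the control sum came from Chil3, named after its values were seen, which read 3.81 and 0.548 FPKM in gelADSC libraries 2 and 3, against 29.6 and 48.7 FPKM in control libraries 1 and 3. The third tested marker, Mrc1, also named after its values were seen, read 8.27 and 8.63 FPKM in gelADSC libraries 2 and 3, against 6.13 and 5.61 FPKM in control libraries 1 and 3 (limma log2 change 0.46, SE 0.19, adjusted p = 0.115). It did not pass the test, and its groups did not overlap. The defining markers Retnla and Mgl2 stayed below 1 FPKM in all libraries. Arg1 itself read 1161 and 1432 FPKM in control, and the part of these cells in its change was not tested.

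Markers of other cells that the samples could hold gave the following sums. Their limma calls stand beside 6.92% higher and 17.5% lower of all genes tested. Of 8 Kupffer cell markers and 8 monocyte and neutrophil markers 0 were called by limma or by voom, and at an unadjusted p under 0.05 2 were higher and 1 lower among the Kupffer cell markers and 1 higher and 1 lower among the others, beside 10.4% higher and 29.5% lower of all genes tested. Kupffer cell markers summed to 355 and 219 FPKM in gelADSC libraries 2 and 3 and 274 and 331 FPKM in control libraries 1 and 3. Monocyte and neutrophil markers summed to 246 and 71.4 FPKM in gelADSC and 144 and 155 FPKM in control, with gelADSC library 3 lowest. Of 6 tested sinusoidal endothelium markers 2 rose and 1 fell, with sums of 109 and 101 FPKM in gelADSC and 96.6 and 90.1 FPKM in control. For stellate cells and fibroblasts, 2 of 7 markers rose, with sums of 121 and 101 FPKM in gelADSC and 148 and 69.8 FPKM in control. Bile duct markers summed to 57.7 and 49.5 FPKM in gelADSC, against 170 and 311 FPKM in control. Of 5 tested 2 fell, and the groups overlapped for 2 others, Krt7 and Epcam. Most of each sum came from Spp1, which read 52.1 and 43.5 FPKM in gelADSC and 150 and 298 FPKM in control. These 3 genes were named after their values were seen. Adipose and mesenchymal stromal markers summed to 60.2 and 37.3 FPKM in gelADSC and 92.4 and 62.9 FPKM in control, and 1 of 4 tested fell. Of 4 markers of red blood cell precursors, Hba-a1 and Hbb-b1 were listed at 0 in all libraries and Alas2, the single one tested, rose. The part of these cells in the changes of urea cycle genes was not tested.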

How the data were processed

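The deposited table holds 1 value per mouse gene symbol and library, and its header names no unit. The values were taken as FPKM made by the authors, since most came out as whole reads over whole gene lengths, as given below. Which tool made them was not established. Cufflinks 2.2.1 stands in the submitters' processing notes beside Trimmomatic 0.38 and TopHat2 2.1.1, without order or settings. The build named there is a human one, so no coordinates were set against the table, and no label gives the annotation or the use of strand. Per the labels' protocols, libraries were made with a stranded kit for messenger RNA. Columns are numbered 1 and 3 (control) and 2 and 3 (gelADSC), unlike the sample titles, and were assigned to groups only.

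Values of 1 gene were whole multiples of a common step once multiplied by the relative depth of each library. Whole reads and a whole gene length (within 0.05 bases) came out for 95.8% of 11070 genes tested, which gave the library totals. Nothing was rescaled. Genes averaging at least 1 FPKM were tested two-sided on log2(FPKM + 1) in R 4.3.3 by limma 3.58.1, fitted with its mean-variance trend, and Benjamini-Hochberg adjustment over all genes tested. The fit and the recovery of reads were tested on simulated data. Alternatives were pseudocounts of 0.1 and 5, no filter, median ratio scaling, quantile normalization, no trend, each library left out and, added after seeing the data, voom in limma on the recovered reads. Lists were described by counts and medians. From each list up to 4 genes called higher and 4 called lower were named by the size of their change, beside paralogs of urea cycle genes, 1 of which is not reported here. The genes and lists were chosen with earlier results of these data known. A planned comparison of protein sequences was not run. Of the list symbols, Pc and Tf were not matched. Poisson intervals are exact and cover counting error only.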

Additional observations from a re-analysis of the deposited data

How the results depend on the processing

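Of 88 fits of the 8 tested urea cycle genes under 11 alternatives, 80 kept the direction and the side of the threshold. Otc kept its call in all 11. Of the others, 5 lost a call (Gls2 in 4 and Arg1 in 1), 2 gained one (Cps1) and 1 changed direction (Asl, whose log2 change lay between -0.056, without gelADSC library 2, and 0.63 when a library was left out). The number of urea cycle genes called higher was 2 with all libraries and settings as described, 1 with no filter, 1 after either scaling (quantile normalization or median ratio), and between 1 and 3 when a library was left out. The number called lower was 1, 0 after median ratio scaling, and 1 when any library was left out. Over all genes tested, 766 were higher and 1936 lower (28.3% higher), after quantile normalization 929 and 999 (48.2%), after median ratio scaling 952 and 932 (50.5%), and without the filter 525 and 730 (41.8%). With a library left out, between 279 and 815 were higher and between 326 and 1765 lower, the lowest without control library 1. Without gelADSC library 2, 815 were higher and 1221 lower. The causes of these differences were not tested. When a library is left out, its group keeps 1 library, and the spread used for that group comes from the other group alone.

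The counts of the lists that follow stand beside those over all genes given above. Supply genes called higher numbered 8, 4 with no filter and 5 after median ratio scaling. Supply genes called lower numbered 5, 3 with no filter, 3 after quantile normalization and 2 after median ratio scaling. They were fewer without control library 3, as was so over all genes tested. Genes of arginine use called lower numbered 6, 3 with no filter and 3 after median ratio scaling. Pyrimidine genes called lower numbered 3, and fewer without control library 1, as was so over all genes tested. Regulators called higher numbered 6, and 1 with no filter. Leaving out Ass1 could not move the shares of the other enzymes, since its listed value took at most 0.0100% of the sum. As that value may be a failed estimate, the shares at the true level of Ass1 are not known. Ass1 and Arg2 rest on at most 35 reads, which limits what can be said of them. No paired analysis was possible because the columns of the groups share a single number.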
